A study of Capra hircus with 11 samples.

Results

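The late-numbered bovine miRNAs are the entries of the deposited lists whose bovine name carries a number of 6000 or more, with any letter or arm. They were chosen by name alone, and 80 of the 637 listed names, or 12.6%, met this rule. Their numbers ran from 6119 to 12061, with 18 names below 7000, 9 between 7000 and 10000, 15 between 10000 and 11000 and 38 above. The highest number below the limit was that of miR-4657, with a median of 0 normalised reads, and the lowest above it belonged to miR-6119-5p and miR-6119-3p, with medians of 9832 and 66.4. The tissue was omental fat, a visceral depot lying over the intestines, taken from 11 Alpine goats (Capra hircus) in milk, 48 ± 2 days after kidding when the experiment began. All goats had first eaten the same hay and concentrate ration, 35% forage and 65% concentrate, for 2 weeks. The 5 controls then kept free access to it until slaughter, and the 6 feed-deprived goats went without feed for the final 48 h. Every library is from a different goat, and the labels give no age, batch or pairing.

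A miRNA is a short RNA cut from a hairpin precursor. Either arm of the hairpin, named 5p or 3p, can be kept, though one arm usually prevails, and the kept strand guides the silencing of messenger RNAs that pair with its seed, the bases near its 5′ end. Names are numbered in the order in which sequences were submitted to the miRBase registry. The miRNAs shared by all mammals mostly carry low numbers. A late number marks a late entry, and it does not show that a miRNA is restricted to cattle. Which of the late-numbered names are shared with other mammals was not examined. Functions in fat are not established for most of the late-numbered bovine names, and none is assigned here. The names are bovine and the tissue is from goat, so a goat sequence that differs from the bovine entry could be undercounted. None of the 74 late numbers was found among the 264 miRNA genes of the goat gene table (assembly ARS1.2), against 199 of the 302 other listed numbers. The highest number in that table is 3959, so it could not hold a late number. Their absence from it therefore does not show whether goats carry these miRNAs. The mature sequences were not used here.

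The libraries held 16974441 to 25389788 miRNA reads. Levels are given as the authors' normalised reads, on which 1 read was worth 0.607 to 1.33 depending on the library. A read spans a whole mature miRNA, so levels of different miRNAs need no correction for length, but adapter ligation favours some sequences. Reads carried no molecular identifier in the labels' description, so counting intervals cover counting error only. Of the marker lists, 5 fat-tissue miRNAs, miR-143 and miR-26a among them, summed to 7007030 to 11357900 normalised reads in controls. After feed deprivation that sum was 5277580 to 9659910, so the ranges overlapped. The sum of the 6 leukocyte markers was higher after feed deprivation, at 42656 to 61575 against 31301 to 37881 in controls, with no overlap. Such sums are weighted to their most abundant names. By mean level over all libraries, miR-142-5p led the leukocyte list at 23190, against 800 for miR-223, and miR-143 led the fat-tissue list at 5442000. The direction of each single marker was not examined. The ranges of the red cell, endothelial, epithelial, striated muscle and liver lists overlapped between the groups, and the 1 liver marker, miR-122, lay between 1.08 and 147. In bulk tissue, fewer cells of a type and less RNA per cell cannot be told apart.

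Most late-numbered miRNAs were at the edge of detection. All 80 had at least 1 read somewhere, which follows from how the list was made, since no listed name had 0 reads throughout. Of the 80, 23 had a read in all 11 libraries, or 28.8%, against 69.1% of the 557 other miRNAs. Another 12 had reads in 1 library only, or 15.0%, against 6.10% of the others. 2 of the 80 and 6 of the 557 are not listed for feed-deprived replicate 1 and so could reach 10 libraries at most. Summed over the libraries, 10 of the 80 had a single read, 25 had 2 to 9 reads, 26 had at least 10 but under 100, 15 had at least 100 but under 1000, 1 lay between 1000 and 10000 and 3 had more than 10000.

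**Figure D1:**
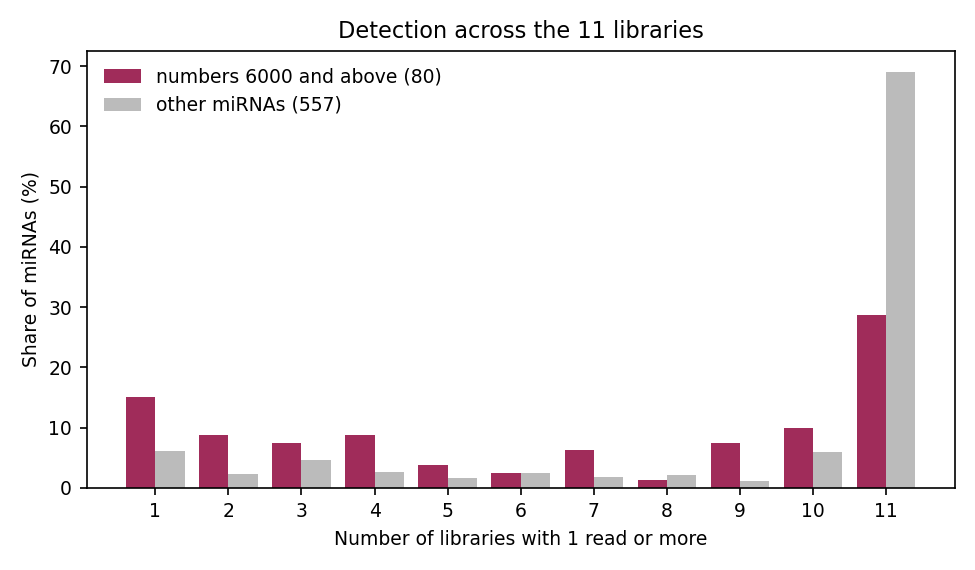
Share of miRNAs (vertical axis, percent) by the number of libraries in which they had 1 read or more (horizontal axis), for the 80 late-numbered miRNAs and the 557 others. The late-numbered miRNAs spread over the whole axis with 28.8% at 11 libraries, whereas 69.1% of the others stood there.

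Among the classes of names, the share with a read in every library fell from 80.9% for numbers under 1000 to 54.8% for the ruminant miR-2284 and miR-2285 families, 37.3% for the names from there up to 3000, 33.3% for those between 3000 and 6000 and 28.8% for 6000 and above. The median level of the late-numbered miRNAs was 1.19 normalised reads, close to the 0.781 of the 51 names between these families and 3000, and far below the 209 of numbers under 1000. Yet together they held 0.371% of all miRNA reads on average, more than the 124 names of the miR-2284 and miR-2285 families, at 0.0653%, or those 51 names, at 0.00531%. Without miR-10174-3p the late-numbered names held 0.0654%, close to the 0.0653% of those families with every name kept. Those families also had a leading name, miR-2284x, at a mean level of 9186 against 675 for the next, miR-2285f. The shares were not compared with both leading names taken out. These are descriptions, with no test.

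Each library held 44 to 54 of the late-numbered miRNAs. The count was 47.6 ± 2.97 in controls (SD, n = 5), and 48.5 ± 4.04 in the feed-deprived goats (SD, n = 6), so the groups differed by less than the spread within either. With 10 reads as the limit the counts were 17.0 ± 1.41 and 17.8 ± 1.94. Thinned to the lowest depth of 16974441 reads, they were 44.6 ± 3.36 and 45.8 ± 4.17. Of the 80, 63 had reads in both groups, 7 in controls only and 10 after feed deprivation only. The same counts were not made for the other listed names. The feed-deprived group also had more libraries and a higher mean depth, so no group difference is read from these counts. The 17 seen in one group had at most 10 reads each. Where a miRNA had 0 reads in a library, that allows up to 3 reads, a level of 1.82 to 3.99 normalised reads.

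A single miRNA supplied most of the reads. miR-10174-3p held 85.5% ± 2.09 of the late-numbered reads in controls (SD, n = 5), and 79.2% ± 7.23 in the feed-deprived goats (SD, n = 6). It ranked 31st by mean level among all 637 names. miR-6119-5p, at rank 64, held 11.5% ± 1.79 and 17.3% ± 6.19, and miR-6529a, at rank 108, held 2.11% ± 0.550 and 2.43% ± 1.06. The other 77 names shared 0.861% ± 0.197 and 0.999% ± 0.172. The next in order, miR-6123, ranked 227th, with a mean level of 96.0 against 1683 for miR-6529a, so a wide gap lay between the leading 3 and the rest. Only 18 of the 80 had a mean level of 10 normalised reads or more, and 39 were below 1.

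**Figure D2:**
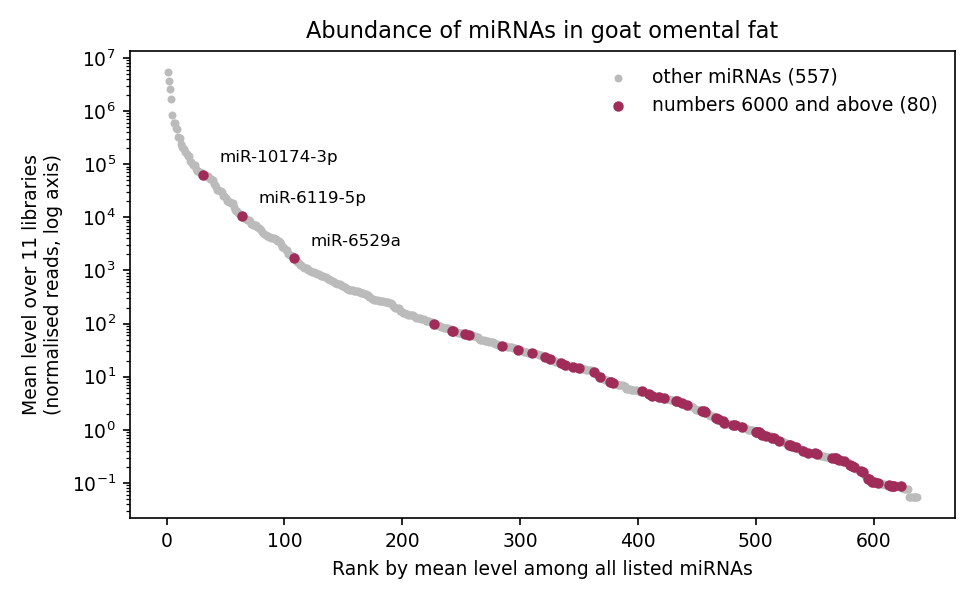
Mean level over the 11 libraries (vertical log axis, normalised reads) against rank among all 637 listed miRNAs (horizontal axis), with the 80 late-numbered miRNAs in purple. miR-10174-3p, miR-6119-5p and miR-6529a stand at ranks 31, 64 and 108, and the others begin at rank 227.

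The late-numbered miRNAs took 0.3999% ± 0.122 of the miRNA reads in controls (SD, n = 5), from 0.233% to 0.516%, and 0.348% ± 0.0674 in the feed-deprived goats (SD, n = 6), from 0.280% to 0.471%. The ranges overlapped. Without miR-10174-3p the shares were 0.0567% ± 0.0149 and 0.0727% ± 0.0311, so the order of the group means turned, again within the spread. Feed-deprived replicate 1 had 0.132% on this measure and the other 10 libraries 0.0398% to 0.0805%.

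No late-numbered miRNA passed the test between the feeding groups. Of the 80, 18 had enough reads to be tested, and limma called 0 of the 18 higher and 0 lower at an adjusted p under 0.05, where 0.833% of the 360 tested miRNAs were called. On the recovered reads edgeR called 0 of the 18, against 0.833% of the 360, and DESeq2 called 0, against 2.50%. At an unadjusted limma p under 0.05 there were 3 of the 18, 1 higher against 8.33% of all tested and 2 lower against 3.33%, where either direction made up 11.7%. edgeR counted 5 of the 18 at this level, against 11.7% of all tested, and DESeq2 4, against 11.4%. In none of the 18 did the groups separate without overlap, which 1.67% of the 360 did.

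Among the 18, values below 0 were somewhat more frequent than above, which was not tested. Of the 18, 11 had a negative log2 fold change and 7 a positive one, with a median of -0.15, whereas 49.2% of all 360 were negative, with a median of 0.0040. Both arms of miR-10182, which are not independent, are among the 11. The medians lay closer in edgeR, at -0.096 against -0.038 for all 360, and in DESeq2, at -0.086 against -0.033. With no filter on low values, 42 of 78 were negative and 36 positive, with a median of -0.036 against 0.015 for all 629. With library totals as the only scaling, the median of all miRNAs moved to 0.16 and the split of the 18 became 9 and 9, as it also did without control replicate 2. Fold changes were taken on log2(value + 1), and those of rarely read miRNAs depend on the scale: miR-12041 had 0.60 in limma, 0.15 in edgeR and 0.17 in DESeq2. The intervals of these differences were wide, from 0.755 to 3.34 log2 units, so a miss of the threshold does not show that levels were alike.

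**Figure D3:**
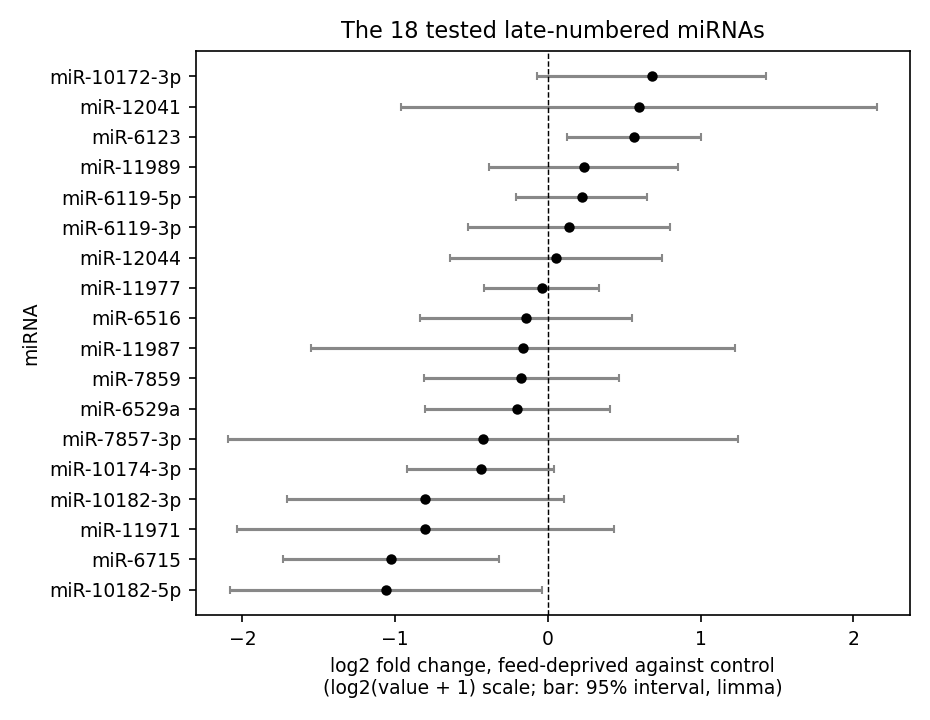
log2 fold change of the 18 tested late-numbered miRNAs (horizontal axis, feed-deprived against control, on the log2(value + 1) scale) with 95% intervals from limma, ordered by value. The intervals of miR-6715, miR-6123 and miR-10182-5p lie on one side of 0, and none of the 18 passed after adjustment over 360 miRNAs.

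miR-10174-3p, the most abundant, stood in controls at 99921, 94402, 65643, 41357 and 72652 normalised reads. After feed deprivation it stood at 37326, 72376, 52397, 59307, 51720 and 49438. All 6 feed-deprived goats lay below the control median, and 3 controls lay above every feed-deprived goat. Control replicate 3 was below feed-deprived replicate 2 alone, and control replicate 4 was among the low values. The group means were 74795 ± 23570 (SD, n = 5), and 53761 ± 11594 (SD, n = 6). The log2 fold change was -0.44 with an SE of 0.224 (adjusted p = 0.483, limma), a ratio of 0.738 with a 95% interval of 0.528 to 1.03. Without control replicate 4 the log2 fold change was -0.64 (limma adjusted p = 0.164), without control replicate 1 it was -0.32 (limma adjusted p = 0.698), and over all alternatives the adjusted p ran from 0.164 to 0.727.

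miR-6119-5p stood in controls at 10966, 11124, 8303, 6724 and 11554 normalised reads, and after feed deprivation at 17254, 13003, 9832, 9625, 9572 and 9245. Feed-deprived replicates 1 and 2 were above all controls, and the other 4 lay among them. The log2 fold change was 0.22 with an SE of 0.2004 (adjusted p = 0.7998, limma), a ratio of 1.17 (95% interval 0.864 to 1.57). That log2 fold change was 0.094 without feed-deprived replicate 1 and 0.095 without control replicate 4. The ratio of miR-10174-3p to miR-6119-5p within a library, which no scaling of libraries changes, was 9.11, 8.49, 7.91, 6.15 and 6.29 in controls and 2.16, 5.57, 5.33, 6.16, 5.40 and 5.35 after feed deprivation. It had means of 7.59 ± 1.32 (SD, n = 5), and 4.995 ± 1.42 (SD, n = 6), and 4 of the 5 controls lay above every feed-deprived goat. The ratio was examined after these values were seen and has no test. The summed leukocyte markers also differed between these groups, at 31301 to 37881 against 42656 to 61575, and their part in the ratio was not tested.

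miR-6529a stood at 1624, 3145, 1481, 1209 and 1624 normalised reads in controls. After feed deprivation it stood at 2350, 1229, 1962, 877, 1373 and 1634. The groups overlapped, with control replicate 2 the highest goat and feed-deprived replicate 4 the lowest. Its log2 fold change was -0.20 with an SE of 0.282 (adjusted p = 0.909, limma), with a ratio interval of 0.572 to 1.33, and 0.02 without control replicate 2.

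**Figure D4:**
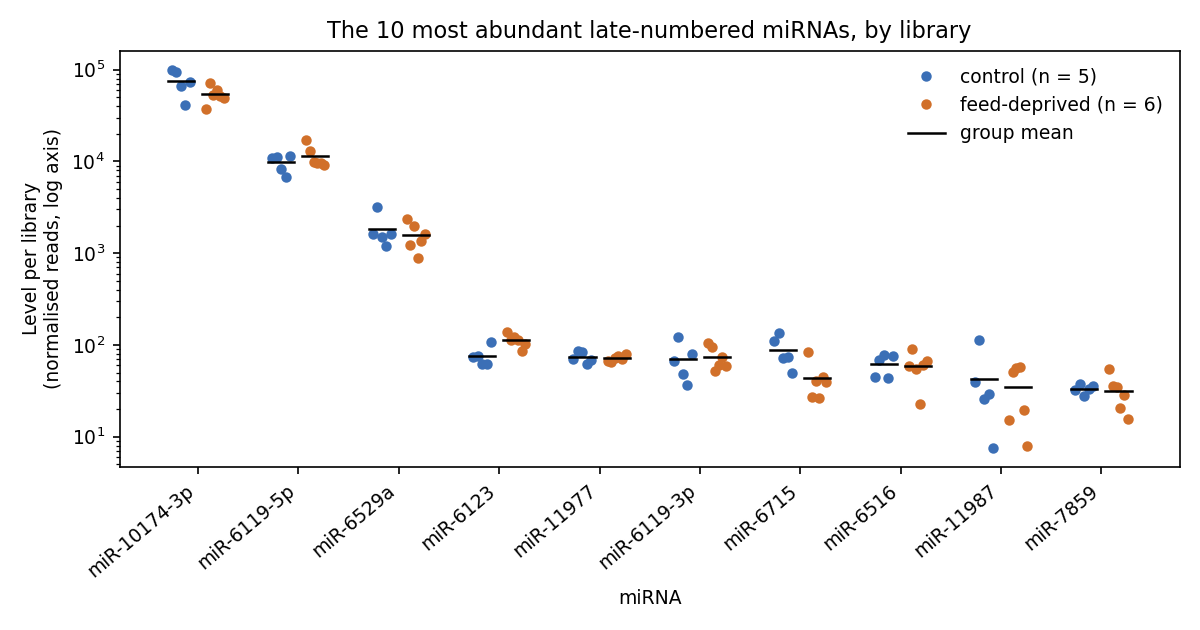
Level in each library (vertical log axis, normalised reads) of the 10 most abundant late-numbered miRNAs, with controls in blue, feed-deprived goats in orange and group means as black lines. The groups overlap for all 10. The clearest shifts are in miR-6715, where 5 of 6 feed-deprived goats lie below every control, and miR-6123, where 4 of 6 lie above every control.

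miR-6715 had the smallest p of the 18 and ranked 12th among the 360. Its levels were 111, 136, 71.8, 74.4 and 49.4 normalised reads among controls and 83.1, 27.4, 40.7, 26.4, 44.3 and 39.3 after feed deprivation. Every feed-deprived goat except replicate 1 was below the lowest control. The means were 88.4 ± 34.4 (SD, n = 5), and 43.5 ± 20.7 (SD, n = 6), and the log2 fold change was -1.03 with an SE of 0.330 (adjusted p = 0.238, limma), a ratio of 0.491 (95% interval 0.300 to 0.803.) Without feed-deprived replicate 1 the log2 fold change was -1.23 (limma adjusted p = 0.088), the lowest of a range of 0.088 to 0.466 over the alternatives. These levels rest on 27 to 137 reads per library.

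miR-6123 was the second by p. Controls had 74.0, 75.8, 61.7, 62.5 and 108 normalised reads, and feed-deprived goats 138, 113, 121, 114, 86.6 and 102. All 6 feed-deprived goats were above the control median and 4 above every control, control replicate 5 being the high one. The log2 fold change was 0.57 with an SE of 0.203 (adjusted p = 0.289, limma), a ratio of 1.48 (95% interval 1.09 to 2.00.) The adjusted p lay between 0.162 and 0.487 over the alternatives.

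miR-10172-3p had 14.0, 21.3, 13.5, 17.2 and 10.1 normalised reads among controls and 37.0, 25.4, 20.9, 47.0, 11.8 and 18.3 after feed deprivation, on 254 reads in all. Of the feed-deprived goats 3 were above every control. The log2 fold change was 0.68 with an SE of 0.349 (adjusted p = 0.484, limma), with a ratio interval of 0.952 to 2.70.

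The arms of miR-10182 had lower values after feed deprivation, and neither passed. The 3p arm stood at 14.0, 42.6, 48.2, 31.3 and 18.4 normalised reads among controls and at 7.28, 33.5, 9.40, 15.7, 16.7 and 22.7 in feed-deprived goats, a log2 fold change of -0.80 with an SE of 0.422 (adjusted p = 0.488, limma). The 5p arm stood at 8.93, 37.2, 32.5, 22.6 and 15.9 and at 3.03, 24.3, 6.27, 10.8, 10.8 and 12.2, a log2 fold change of -1.06 with an SE of 0.475 (adjusted p = 0.423, limma). In both arms control replicates 2 and 3 and feed-deprived replicate 2 were high and feed-deprived replicate 1 was lowest. Both arms come from the same hairpin, so they are not 2 independent results.

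The other 10 tested miRNAs had unadjusted limma p-values of 0.184 to 0.868. miR-11977 was nearly level, at 74.0 ± 10.2 normalised reads among controls and 71.6 ± 5.57 in feed-deprived goats, a log2 fold change of -0.04 with an interval of -0.42 to 0.34. miR-6516 stood at 62.1 ± 16.9 and 58.5 ± 21.6, and miR-7859 at 33.3 ± 3.63 and 31.7 ± 13.9. miR-11989 stood at 17.0 ± 6.29 and 19.2 ± 2.74, and miR-12044 at 15.2 ± 5.65 and 15.7 ± 4.88. miR-11971, at 37.0 ± 22.6 and 20.8 ± 11.8, had a log2 fold change of -0.80 in limma, and all 6 feed-deprived goats lay below its control median. miR-6119-3p stood at 70.5 ± 32.8 and 74.0 ± 21.6. The widest spread was in miR-7857-3p, at 20.4 ± 20.1 and 9.78 ± 6.88, in miR-11987, which ran from 7.54 to 112 over the goats, and in miR-12041, which ran from 0 to 27.9.

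Arm use could be followed in the 6 hairpins for which both arms are listed. In miR-10174 the 3p arm held 685746 reads and the 5p arm 40, a ratio of 17144, and its 3p share was 99.98% or more in every library. In miR-6119 the 5p arm led with 125212 reads against 836, and its share lay between 98.9% and 99.5%. miR-10172 had 254 reads from 3p and 17 from 5p, and 3p led in all 11 libraries. The arms of miR-10182 were nearly balanced, with 250 reads from 3p and 175 from 5p, and 3p was still ahead in each of the 11 libraries. Its 3p share was 57.2% ± 3.53 in controls (SD, n = 5), and 62.2% ± 4.74 in the feed-deprived goats (SD, n = 6), ranges that overlapped. In miR-7857, 161 reads came from 3p and 95 from 5p, and 3p was ahead in 7 of the 11 libraries. Its 3p share ran from 33.3% to 88.9%, but such values rest on few reads. Control replicate 4, at 33.3%, had 1 read from 3p and 2 from 5p. Feed-deprived replicate 3, at 88.9%, had 8 and 1. Whether arm use differed between goats was not tested. miR-10175 had 4 reads and 2 reads, too few for a share.

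**Figure D5:**
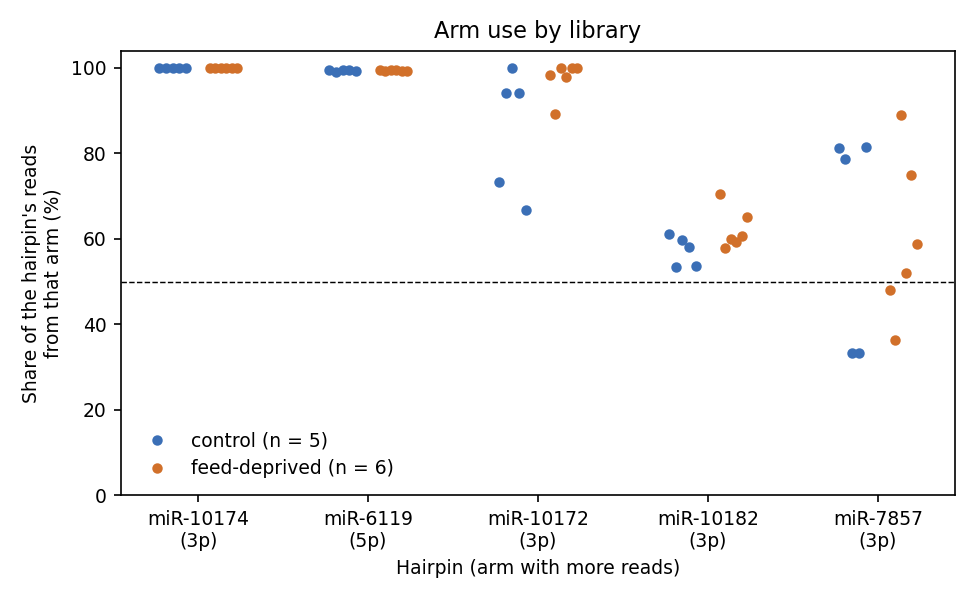
Share of a hairpin's reads from its more abundant arm (vertical axis, percent) in each library, for 5 hairpins with both arms listed, controls in blue and feed-deprived goats in orange. The dashed line marks equal arms. miR-10174 and miR-6119 lie near 100%, miR-10182 between 53.3% and 70.6%, and miR-7857 on both sides of the line.

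The 62 untested late-numbered miRNAs held 1128 reads in all, 0.135% of the 837851 late-numbered reads, with a median of 7 reads per miRNA over the 11 libraries and 112 at most. The groups overlapped in all 62. A name with 0 reads in some library of each group overlaps by necessity, so this does not show that levels were alike. The share of other untested names that overlapped was not counted. Of the 62, 6 had a read in every library: miR-7862 with 112 reads, miR-7857-5p with 95, miR-10225b with 90, miR-6525 with 87, miR-12005 with 50 and miR-7863 with 40. miR-10225b was uneven, at 41.1 normalised reads in feed-deprived replicate 4 and 0.984 to 11.3 in the other 10 goats. miR-6525 stood between 6.70 and 18.3 in controls and between 0.873 and 10.8 after feed deprivation.

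With no filter on low values, limma called 0 of 78 late-numbered miRNAs, against 0.318% of 629, and 5 of the 78 had an unadjusted p under 0.05, against 8.11% of 629. The lowest p was that of miR-12034, whose 10 reads came from 5 of the 6 feed-deprived goats (2, 2, 4, 0, 1 and 1 reads) and from 0 of the 5 controls (limma adjusted p = 0.222). miR-11974 had its 5 reads in 3 controls and none after feed deprivation (limma adjusted p = 0.424). With so few reads no fold is given for either, and both were picked out after their values were seen. The 2 names not listed for feed-deprived replicate 1 were miR-11986c, with 46 reads and a log2 difference of 0.12 over the other 10 libraries, and miR-12038, with 5 reads and a log2 difference of 0.10, both without a test.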

How the data were processed

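Per the labels' protocols, the 11 small RNA libraries were prepared with TruSeq adapters, amplified over 13 PCR cycles and read once over 50 bases. For aligner, database and scaling tool, the sources used here name none. What the authors deposited is a normalized signal, 1 value for each bovine name in a library. Dividing by the smallest non-zero value gave whole reads for 100% of non-zero values (tolerance 0.001 read). Median-of-ratios factors from these reads stood to the deposited ones at 0.998 to 1.003.

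Names present in all 11 lists numbered 629. Of these, filterByExpr of edgeR (minimum count 10) kept 360. limma was fitted to log2(signal + 1) of these, two-sided, with a trended prior variance, robust moderation and Benjamini-Hochberg adjustment over the 360 (threshold 0.05). Alternatives included edgeR's quasi-likelihood test and DESeq2 on the recovered reads, which called 3 and 9 of the 360. R 4.3.3, limma 3.58.1, edgeR 4.0.16 and DESeq2 1.42.0 were used. The fits were also run on simulated reads that gave every miRNA the same spread between libraries beyond counting error. The real miRNAs differ in spread, so that run does not show how well the fits perform on them. Intervals of ratios are limma's 95% intervals.

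Replicate numbers were given here by order of accession; they only name goats and pair none. The miRNAs and lists were chosen with earlier results of these data known. Named were those past the threshold, the 10 most abundant, the 5 with the smallest p, those at a level of 10 or more with separate groups, and those with both arms. The other tested miRNAs, and the untested ones named, were added after their values were seen. No pair of libraries within a group was alike to within sampling noise (lowest chi-square per degree of freedom 591).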

Additional observations from a re-analysis of the deposited data

Results flagged for a closer look

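In 7 of 53 sets of group values, 1 goat stood well apart. Chance gives this in about 1 set in 20 in general, but that rate does not hold for sets in which most goats are at 0, and some of the sets share the same reads, so no excess is read from the 7. In feed-deprived replicate 1, miR-10174-3p held 64.7% of the late-numbered reads (exact Clopper-Pearson 95% interval 64.4% to 65.0%), against 80.8% to 84.2% in the other 5 feed-deprived goats, and its ratio to miR-6119-5p was 2.16, against 5.33 to 6.16. The same goat had 83.1 normalised reads of miR-6715, against 26.4 to 44.3. For miR-6529a it was control replicate 2, at 3145 normalised reads where the remaining controls had 1209 to 1624. The remaining cases rest on 1 to 3 reads: miR-10172-5p at 3.04 in feed-deprived replicate 2, against 0 to 0.978, and miR-10175-5p at 1.33 in control replicate 2 and 0.984 in feed-deprived replicate 5, against 0 in the others of each group.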

How the results depend on the processing

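No late-numbered miRNA was called under any of the 21 alternatives, 10 that kept all libraries and 11 that left out 1 goat, and the lowest adjusted p was 0.088. Of 363 values of single miRNAs, 349 kept their direction. With library totals miR-11977 was at 0.12 and miR-6516 at 0.017. The other changes of sign came from leaving out 1 goat, for which the log2 fold changes ran from -0.097 to 0.018 (miR-11977), -0.63 to 0.30 (miR-11987), -0.15 to 1.05 (miR-12041), -0.10 to 0.23 (miR-12044), -0.062 to 0.36 (miR-6119-3p), -0.28 to 0.10 (miR-6516), -0.33 to 0.019 (miR-6529a) and -1.06 to 0.092 (miR-7857-3p). The cause was not tested. The median of the tested late-numbered miRNAs ran from -0.18 to -0.04 without 1 goat. With 10 reads as the limit, 17.0 late-numbered miRNAs were detected per control and 17.8 per feed-deprived library, and 44.6 per control library after thinning. Without miR-10174-3p the share of reads was 0.0567% in controls and 0.0727% after feed deprivation. The stricter filter on mean level left 3 late-numbered miRNAs to test. The 62 untested names had 42 reads or fewer in any library, and why their reads were few was not tested. Among them, miR-11986c and miR-12038 could not enter the fit because they are not listed for feed-deprived replicate 1. No paired analysis was possible because the labels give no pairing, and the replicate numbers used here only follow accession order.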

Other observations

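The spread over the 11 goats differed among the late-numbered miRNAs. It pools the feeding groups, so a difference between group means adds to it. miR-11977 had a coefficient of variation of 10.6% and was the steadiest of the 81 tested miRNAs within 2-fold of its level, whose median was 33.8%. miR-11989 had 25.1%, where the median of the 75 at its level was 39.7%. Counting error alone would give about 11.8% for miR-11977 and 25.0% for miR-11989. Their spread was thus about the size of counting error, and no steadiness between goats beyond that can be read from it. miR-7857-3p had 100.5% (median at its level 42.1%), miR-11987 had 79.4% (median 38.0%) and miR-11971 had 66.2% (median 39.9%). miR-10174-3p had 32.0% and was the most variable of the 24 tested miRNAs within 2-fold of its level, as the other 23 were all steadier. Its spread includes the difference between group means of 74795 in controls and 53761 after feed deprivation. Each of these sets and medians counts the named miRNA itself. These are descriptions, with no test.

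miR-11975 and miR-11976 were listed with the same reads in each library, 10 in all, 1 of 7 such sets of names among 532 miRNAs with 5 reads or more. These 2 of the 80 names are not independent.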
